A study of Mus musculus with 9 samples.

Results

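Small nucleolar RNAs (snoRNAs) and small Cajal body RNAs (scaRNAs) were examined in thymic invariant natural killer T (iNKT) cells, a T cell lineage that recognises glycolipids. The members are the gene models typed snoRNA or scaRNA with a mean of at least 5 FPKM over the 9 libraries, where FPKM is a fragment count scaled by the length of the gene model and by the mapped fragments of the library. Of 21883 gene models, 446 carried these types, and 159 reached that mean (145 typed snoRNA and 14 typed scaRNA). All members were tested in both comparisons below. They were chosen by their mean FPKM over all 9 libraries, so their levels are given as a description with no test. Gm24620 at 5 FPKM, Gm24888 at 5.10 and Gm24067 at 5.17 lay just inside the limit, and Gm22980 at 4.95, Scarna8 at 4.97 and Gm23547 at 4.97 just outside.

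The libraries came from cells sorted from the thymus of C57BL/6 mice, with 3 libraries per group. WT stage 2 cells (CD44hi NK1.1lo) and WT stage 3 cells (CD44hi NK1.1hi) were from mice aged 6 weeks. Med23-deficient stage 2 cells came from mice with floxed Med23, a subunit of the Mediator complex of RNA polymerase II, and a Cd4-Cre transgene, which deletes from the double-positive thymocyte onward; the labels give no age for them. The paper describes the sequencing data as representing 3 independent experiments. No source states whether the replicates were separate mice or pools, so p-values measure the spread between these libraries, which may in part be technical. Med23 itself was read at 5.51, 5.15 and 6.74 FPKM in WT stage 2, 7.14, 4.44 and 6.12 in WT stage 3 and 4.80, 3.60 and 3.92 in Med23-deficient cells, over the whole gene and not over the deleted part alone. The iNKT factor Zbtb16 averaged from 27.5 to 101 FPKM by group, Cd3e from 118 to 129, and the summed markers of double-positive thymocytes (7 genes) stayed at or under 4.99 FPKM, with Ptcra and Rag2 near 0. The summed level of the B cell genes Cd79a, Cd79b and Ighm, nearly all of it Ighm, was 31.2 to 50.2 FPKM in WT stage 2, 46.3 to 55.1 in WT stage 3 and 85.6 to 104 in Med23-deficient cells. The part of such cells in the results below was not tested. Fewer cells of a type and less RNA per cell cannot be told apart in these bulk libraries.

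Most snoRNAs are made from introns. The host transcript is spliced, the intron is debranched and exonucleases trim it to the ends of a small ribonucleoprotein. Box C/D snoRNAs carry a C box near the start and a D box near the end, bind fibrillarin, Nop56, Nop58 and Snu13, and mostly guide methylation of ribose in ribosomal RNA. Box H/ACA snoRNAs end with an ACA triplet close to the end, bind dyskerin, Gar1, Nhp2 and Nop10, and mostly guide pseudouridylation. The scaRNAs use the same boxes but act on spliceosomal RNAs in Cajal bodies. A few members, U3 among them, are needed for cleavage of the ribosomal RNA precursor, a role other than guiding modification.

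The following sequences are those of abundant models of each class and of models described in the comparisons below. They are taken from GENCODE vM21 transcripts on GRCm38, the same build as mm10, printed as DNA; all 446 models matched that release in identifier, coordinates and strand. In the box C/D models capitals mark the C box letters TGATGA within the first 20 bases and the D box letters CTGA within the last 20. Snord15b (chr7:99479563-99479707, minus strand), Snord15a (chr7:99482785-99482932, minus strand) and Gm25835 (chr11:69668852-69668995, minus strand) were the most abundant, and Snord59a (chr10:128084143-128084216, plus strand) and Gm22192 (chr2:32221970-32222054, plus strand) were the models past an adjusted p in the stage comparison. In Gm22192 only the D box letters were found.
Snord15b: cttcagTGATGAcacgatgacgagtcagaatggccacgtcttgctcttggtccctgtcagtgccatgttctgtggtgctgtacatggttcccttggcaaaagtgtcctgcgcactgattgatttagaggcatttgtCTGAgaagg
Snord15a: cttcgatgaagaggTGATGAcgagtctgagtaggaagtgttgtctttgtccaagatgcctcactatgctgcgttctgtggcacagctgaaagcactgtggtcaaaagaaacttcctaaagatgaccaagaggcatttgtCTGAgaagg
Gm25835: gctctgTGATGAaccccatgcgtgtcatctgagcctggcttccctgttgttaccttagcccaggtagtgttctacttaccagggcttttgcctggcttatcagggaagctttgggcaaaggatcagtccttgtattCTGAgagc
Snord59a: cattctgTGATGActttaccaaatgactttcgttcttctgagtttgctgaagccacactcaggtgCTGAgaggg
Gm22192: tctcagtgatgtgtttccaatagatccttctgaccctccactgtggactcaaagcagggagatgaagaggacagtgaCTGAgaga

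In the H/ACA models and the scaRNA below, capitals mark the ACA letters that leave 3 bases to the end. Snora21 (chr11:97781639-97781775, minus strand) was the most abundant H/ACA model, Snora30 (chr7:127527874-127528003, plus strand) had the lowest adjusted p in Med23-deficient cells, and Gm22442 (chr11:69350518-69350661, minus strand) was the most abundant scaRNA.
Snora21: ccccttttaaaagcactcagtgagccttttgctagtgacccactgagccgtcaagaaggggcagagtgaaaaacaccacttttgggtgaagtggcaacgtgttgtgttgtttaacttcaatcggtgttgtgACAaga
Snora30: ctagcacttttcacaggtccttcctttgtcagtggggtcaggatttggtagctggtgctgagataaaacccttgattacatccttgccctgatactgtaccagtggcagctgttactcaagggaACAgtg
Gm22442: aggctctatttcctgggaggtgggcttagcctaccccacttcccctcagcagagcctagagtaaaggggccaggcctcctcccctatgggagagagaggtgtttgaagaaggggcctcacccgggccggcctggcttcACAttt

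The U3 copy Rnu3b4 (chr11:87462286-87462500, plus strand) is shown with Gm23927 (chr19:4078298-4078512, minus strand), a model with no class in its name. Both are 215 bases long, and capitals in Gm23927 mark the 8 bases at which it differs from Rnu3b4, an identity of 96.3%.
Rnu3b4: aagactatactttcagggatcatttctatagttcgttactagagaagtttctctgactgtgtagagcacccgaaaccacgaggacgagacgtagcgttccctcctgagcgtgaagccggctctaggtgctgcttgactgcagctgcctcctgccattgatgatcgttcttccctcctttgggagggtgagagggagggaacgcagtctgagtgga
Gm23927: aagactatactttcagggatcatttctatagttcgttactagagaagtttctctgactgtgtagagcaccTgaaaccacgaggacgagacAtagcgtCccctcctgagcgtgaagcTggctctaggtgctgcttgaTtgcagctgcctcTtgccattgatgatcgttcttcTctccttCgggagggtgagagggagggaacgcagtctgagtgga

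By name, 40 members were box C/D (Snord), 28 box H/ACA (Snora), 16 scaRNA and 5 U3 (Rnu3), and 70 had no class in the name. Scarna9 and Scarna10 are counted among the 16 although their type is snoRNA. The C and D letters stood in both windows of 27 of 40 models named Snord (67.5%) and of 0 of 28 named Snora. The ACA letters stood 3 bases before the end of 23 of 28 named Snora (82.1%) and of 0 of 40 named Snord. Among the 70 without a class, 38 held the ACA letters and 15 the C and D letters, with 2 counted in both, so that most of them could be placed by sequence. Of 16 scaRNAs, 6 held the C and D letters and 7 the ACA letters, and 0 of 5 U3 models held either. The 287 models below the mean held the C and D letters in 19.9% and the ACA letters in 33.1%, and 4196 other annotated RNAs within the same range of lengths in 0.0238% and 2.17%. A match in these windows is a description of the letters and does not identify a working box.

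A few models carried most of the signal. Snord15b alone made up 24.5% of the members' summed FPKM, Snord15b and Snord15a together 34.5%, and the top 10 members 66.8%, while the median member stood at 14.9 FPKM. Models named Snord took 49.4% of the sum, those without a class 24.1%, Snora 15.1%, scaRNA 7.003% and U3 4.34%. The median length was 82 bases for Snord, 133.5 for Snora and 142 for scaRNA models.

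Snord15b, a guide for methylation of the large-subunit rRNA, lies over an annotated exon of the ribosomal protein gene Rps3. It was read at 2198, 2915 and 1627 FPKM in WT stage 2, 2306, 3671 and 3588 in WT stage 3 and 2450, 2375 and 3128 in Med23-deficient cells. The groups overlapped in both comparisons. Snord15a, from an intron of Rps3 and 64.5% identical to Snord15b, was read at 893, 1055 and 929 FPKM, then 825, 1211 and 1636, then 860, 979 and 1487, in the same order. Snora21, in an intron of the ribosomal protein gene Rpl23, gave 574, 581 and 421 FPKM in WT stage 2, 533, 565 and 987 in WT stage 3 and 588, 477 and 956 in Med23-deficient cells. In Snord15a and Snora21 the highest value of WT stage 3 and of Med23-deficient cells was replicate 3, a feature taken up below. Gm25835, in an intron of the translation initiation helicase gene Eif4a1, averaged 709 FPKM over the 9 libraries and Gm22988, from the same gene, 271.

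The next Snord models were Snord22 and Snord17, described below, then Snord21 in Rpl5 with a mean of 98.3 FPKM, Snord87 in the non-coding gene Snhg6 with 76.9, Snord118 with 69.9 and Snord55 with 62.6. Snord87 was read at 75.4, 68.5 and 74.8 FPKM in WT stage 2, 38.5, 43.8 and 140 in WT stage 3 and 50.6, 41.5 and 159 in Med23-deficient cells. In WT stage 3 and Med23-deficient cells 2 libraries thus lay below all WT stage 2 values and replicate 3 above them, and the log2 fold changes of -0.23 and -0.07 became -0.79 and -0.64 without replicate 3 of each group. Snord55 was read at 63.2, 38.3 and 46.9 FPKM, then 32.1, 43.9 and 134, then 49.6, 44.1 and 112, and Snord21 had the same form, with 159 and 167 FPKM in replicate 3 of WT stage 3 and Med23-deficient cells against 61.5 to 93.7 in the other 7 libraries.

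Below Snora21, the Snora models were led by Snora23 in the importin gene Ipo7 with a mean of 272 FPKM, Snora26 in the non-coding gene Dancr with 109, Snora24 in Snhg8 with 69.9 and Snora74a with 62.4, followed by Snora81, Snora62 in Rpsa with 57.2 and Snora7a in Rpl32 with 53.4. Snora23 was read at 251, 264 and 205 FPKM in WT stage 2, 202, 321 and 439 in WT stage 3 and 223, 216 and 330 in Med23-deficient cells. Snora7a was read at 42.7, 40.2 and 29.1 FPKM, then 56.9, 44.3 and 93.3, then 58.1, 43.7 and 72.5. For Snora7a WT stage 2 lay wholly below both other groups, with log2 fold changes of 0.73 (adjusted p = 0.387) and 0.61 (adjusted p = 0.452) and of 0.27 and 0.28 without replicate 3 of each group.

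The scaRNA Gm22442, in an intron of the chromatin remodeller gene Chd3, varied least of all members across libraries. It was read at 587, 503 and 434 FPKM in WT stage 2, 552, 485 and 529 in WT stage 3 and 610, 537 and 577 in Med23-deficient cells, a highest value 1.41 times the lowest. The same ratio had a median of 4.17 over the 153 members above 0 in all libraries, and it was under 2 in 7 members. Next among the scaRNAs by mean were Gm22009 with 46.2 FPKM, Gm26083 with 29.4, Gm22767 with 22.4 and Scarna2 with 20.6.

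**Figure D1:**
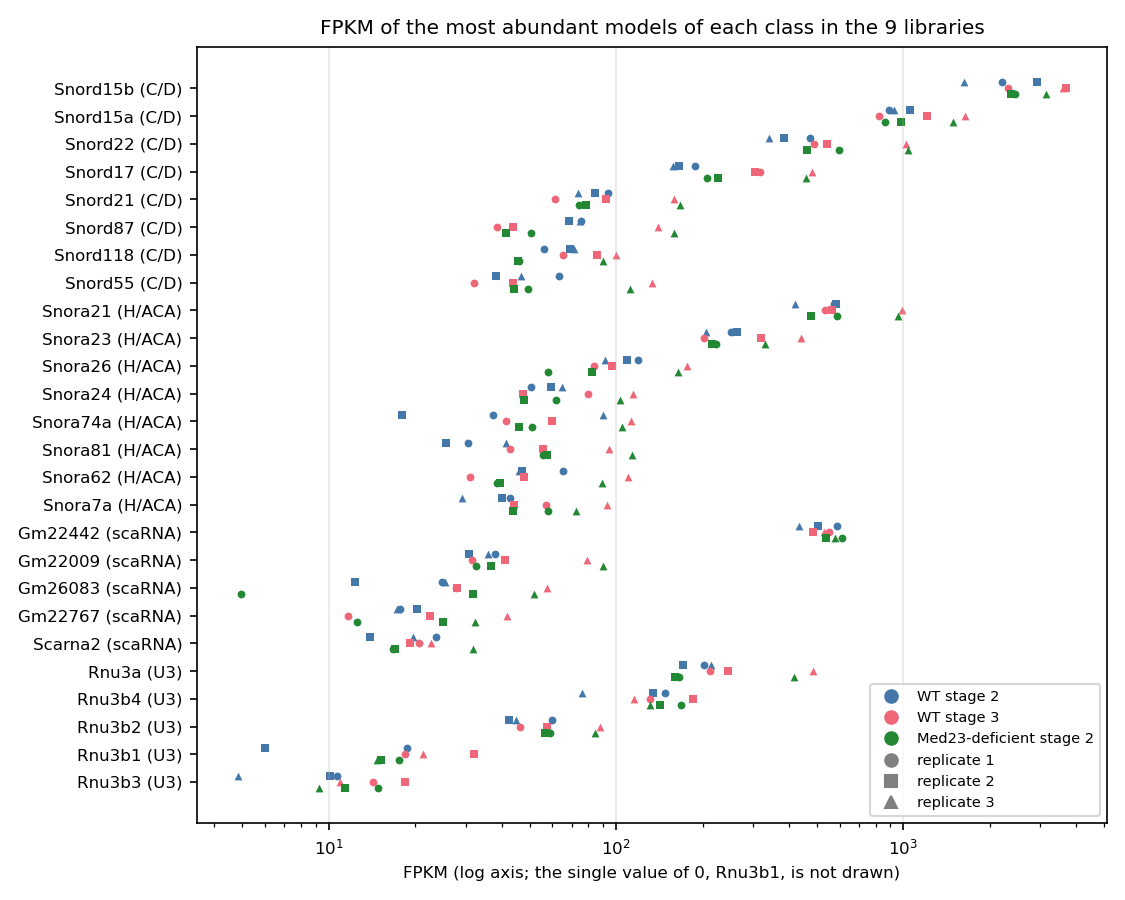
FPKM on a log axis of the 8 most abundant Snord, 8 Snora, 5 scaRNA and the 5 U3 models in each library, with the group given by colour and the replicate by marker shape. Snord15b lies at 1627 FPKM or above in all libraries, the single value of 0 (Rnu3b1) is not drawn, Gm22442 spans 434 to 610, and for most models the triangles (replicate 3) of WT stage 3 and Med23-deficient cells lie to the right.

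At the other end, 31 members were under 1 FPKM in some library and at 10 FPKM or more in another. Of these, 18 overlap an annotated exon of the host and 10 lie in an intron. Snord99, in the non-coding host Snhg12, stood at 17.6 FPKM in WT stage 3 replicate 2 and at 30.3 and 22.5 in Med23-deficient replicates 1 and 2, and at or under 0.02 in the other 6 libraries. Snord96a, in the ribosomal scaffold gene Rack1, stood at 23.1 and 27.0 in Med23-deficient replicates 1 and 2 and at or under 0.19 in the other 7 libraries. Scarna10, which guides modification of the spliceosomal RNA U5, stood at 27.0 in WT stage 2 replicate 3 and 19.0 in WT stage 3 replicate 3 and at or under 0.87 elsewhere. None of these 3 passed a threshold below. Reads of an exon and of the snoRNA lying in it share the same bases, and how StringTie divided them is not visible in the values.

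Replicate 3 of WT stage 3 and replicate 3 of Med23-deficient cells stood apart from the other 7 libraries for these RNAs. The summed FPKM of the members was 9791, 10308 and 7835 in WT stage 2, 9317, 12000 and 15889 in WT stage 3 and 9683, 9120 and 14925 in Med23-deficient cells. On the log2(FPKM + 1) scale the median member lay 0.75 above its own mean over 9 libraries in WT stage 3 replicate 3 and 0.62 above it in Med23-deficient replicate 3. In the other libraries that median was between -0.31 and 0.07. In WT stage 3, replicate 3 exceeded both other replicates in 120 of 159 members (75.5%), in Med23-deficient cells in 113 (71.1%) and in WT stage 2 in 46 (28.9%). For 5410 protein coding genes of at least the same mean level these shares were 30.5%, 38.7% and 34.8%.

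The same 2 libraries were high for small nuclear and ribosomal RNA models as well. The median deviation was 0.62 and 0.96 for 53 small nuclear RNA models and 0.78 and 0.87 for 21 ribosomal RNA models, in WT stage 3 and Med23-deficient replicate 3. It was 0.46 and 0.27 for 50 miRNA models and 0.21 and 0.07 for 15 miscellaneous RNA models. For protein coding genes it was -0.04 and 0.01, and for 100 host genes of the members -0.15 and -0.12. These 2 libraries also had the most gene models above 0, 17151 and 17333 against 15584 to 16670 in the others. What set them apart was not tested, and the main counts and medians below are given with and without replicate 3.

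**Figure D2:**
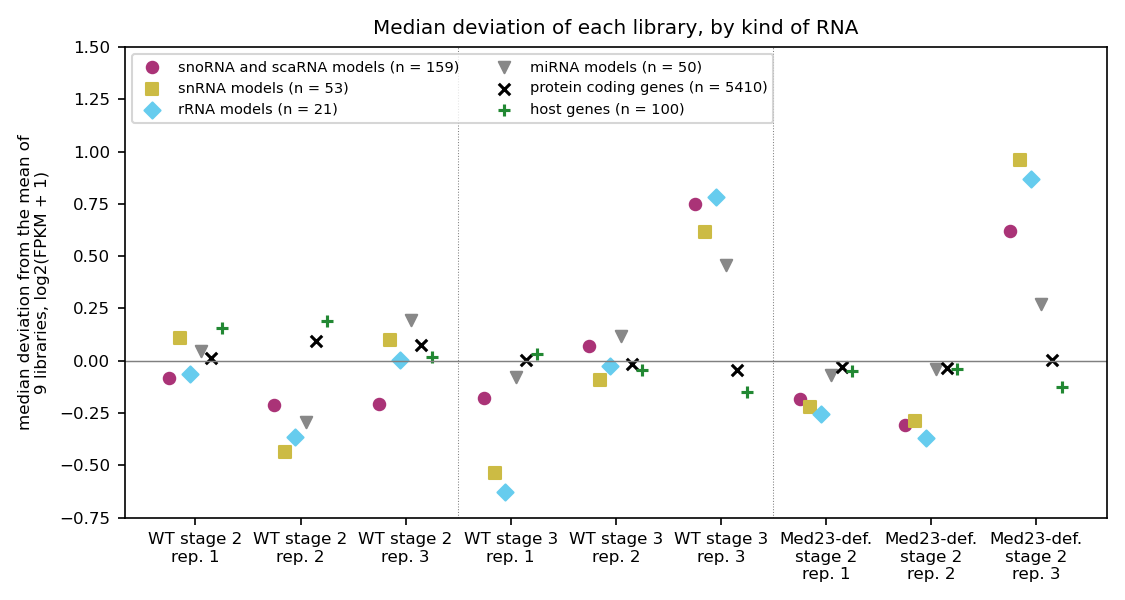
Median deviation of log2(FPKM + 1) from the mean of the 9 libraries, for each library (horizontal axis) and each kind of RNA (symbols, with the number of models in the key). In replicate 3 of WT stage 3 and of Med23-deficient cells the snoRNA and scaRNA, small nuclear and ribosomal RNA symbols lie between 0.62 and 0.96, whereas protein coding genes and host genes stay between -0.15 and 0.01.

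The comparison of WT stage 3 with WT stage 2 asked how levels differed over the last step of thymic maturation. Of the 159 members, 11 were at least 2-fold higher at stage 3 with an unadjusted p of at most 0.05 in limma, and 0 were lower by that rule (6.92% of members against 1.63% of all genes called higher, 1.88% called lower and 3.51% in either direction). Among genes with a mean of at least 5 FPKM, 2.35% were called higher and 2.18% lower. Among all 415 snoRNA and scaRNA models tested these shares were 4.58% and 0.482%. At an unadjusted p alone, 18 members were higher and 1, Gm25894, lower (11.3% and 0.629%, against 5.94% and 8.59% of all genes). Without replicate 3 of each group these were 15 and 8 (9.43% and 5.03%, against 5.18% and 6.22%). After Benjamini-Hochberg adjustment over 20689 genes, 2 members passed 0.05, Gm22192 and Snord59a. That is 1.26% of members, against 2.03% of all genes and 3.03% of genes with a mean of at least 5 FPKM. In place of 11 higher and 0 lower, the fit without WT stage 3 replicate 3 gave 7 higher and 2 lower, that without WT stage 3 replicate 1 gave 19 and 1, and that without replicate 3 of each group 9 and 3. The count of 2 was 1 when replicate 2 or 3 of WT stage 3 or replicate 3 of WT stage 2 was left out, 5 without WT stage 2 replicate 2 and 0 without replicate 3 of each group.

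Gm22192 lies in an intron of Prrc2b, a gene for an RNA-binding protein. It was read at 3.57, 3.89 and 3.39 FPKM in WT stage 2 and 11.9, 12.6 and 13.0 in WT stage 3. The stage 3 values lay wholly above those of stage 2. Its log2 fold change was 1.55 (SE 0.08, adjusted p = 0.00492), with an adjusted p between 0.00429 and 0.181 over the alternatives. In Med23-deficient stage 2 cells it was read at 4.55, 2.81 and 13.2 FPKM, so that 2 libraries stood near the WT stage 2 values and replicate 3 near stage 3. Gm25632, also in an intron of Prrc2b (chr2:32225653-32225737), has the identical 85-base sequence, so reads cannot be assigned to one rather than the other by sequence.

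Gm25632 gave 3.64, 3.25 and 2.27 FPKM in WT stage 2, 10.2, 6.14 and 10.7 in WT stage 3 and 4.63, 2.84 and 13.8 in Med23-deficient cells. The sum of both copies was 7.21, 7.14 and 5.66 FPKM in WT stage 2 and 22.1, 18.7 and 23.7 in WT stage 3, with no overlap. Prrc2b itself was read at 31.6, 29.6 and 31.9 FPKM in WT stage 2 and 40.1, 37.1 and 38.5 in WT stage 3, with a fitted log2 value of 0.30 (adjusted p = 0.142). The host thus lay higher as well, by a smaller amount that did not pass the adjusted threshold.

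Snord59a lies in an intron of Atp5b, the beta subunit of the mitochondrial ATP synthase. It was read at 4.39, 2.71 and 3.65 FPKM in WT stage 2 and 13.1, 13.2 and 12.6 in WT stage 3, again without overlap. The log2 fold change was 1.63 (SE 0.15, adjusted p = 0.0155, and 0.00744 to 0.255 over the alternatives). Atp5b itself gave values of 82.4, 95.3 and 87.4 FPKM in WT stage 2 against 70.7, 63.5 and 60.8 in WT stage 3, the opposite direction, with a log2 value of -0.44 (adjusted p = 0.119). Another member in Atp5b, Mir677, which is typed snoRNA, was read at 5.44, 1.12 and 1.24 FPKM and then 22.4, 3.14 and 4.94, which overlap. Both Gm22192 and Snord59a kept a 2-fold difference and an unadjusted p of at most 0.05 in each of 20 alternatives.

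The other 9 members past the fold and unadjusted p did not pass the adjusted threshold. Snord17, in an intron of the sorting nexin gene Snx5, was the only one above 100 FPKM in all 6 libraries, with 188, 165 and 158 FPKM in WT stage 2 and 317, 305 and 481 in WT stage 3. Its log2 fold change was 1.08 (SE 0.20, adjusted p = 0.0801), and 0.87 without WT stage 3 replicate 3. Gm26202, a 65-base box C/D model in the ribosomal protein gene Rpl17, gave 3.25, 4.98 and 7.31 FPKM, then 13.1, 15.7 and 16.3. Snora30 gave 4.02, 2.68 and 3.15, then 7.34, 8.73 and 14.4. In these 3 the lowest stage 3 value exceeded the highest stage 2 value.

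Gm24044, an ACA model in the ribosomal protein gene Rpsa, was read at 39.5, 34.5 and 55.7 FPKM in WT stage 2 and 70.2, 87.2 and 132 in WT stage 3. Gm23946, in the mitochondrial import gene Timm23, was read at 14.2, 11.3 and 22.4 and then at 34.9, 39.8 and 31.0. Snora70, in Rpl10, gave 6.26, 1.76 and 7.66 and then 9.64, 11.5 and 17.6. None of these 3 overlapped between the stages, and their log2 fold changes were 1.12, 1.14 and 1.28 with adjusted p of 0.164, 0.119 and 0.328. Gm25394, in the isoleucyl-tRNA synthetase gene Iars, gave 2.39, 5.17 and 2.26 and then 9.69, 4.87 and 12.6, which overlap. The call of Gm25394 was lost in 4 of 6 fits that left out 1 library and that of Snora70 in 5 of 6. Gm24044 lost its call without WT stage 2 replicate 2 (0.97) or WT stage 3 replicate 3 (0.87), and Gm23946 without WT stage 2 replicate 2 (0.94).

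Gm23927, the U3-like model shown above, had the largest fitted change and the least certain one. It was read at 0.34, 81.5 and 0.34 FPKM in WT stage 2, 69.9, 104 and 285 in WT stage 3 and 106, 55.8 and 312 in Med23-deficient cells. A single WT stage 2 library thus stood among the values of the other groups and 2 stood near 0. The log2 fold change was 4.60 (SE 1.79, adjusted p = 0.334) in the stage comparison and 4.55 (SE 1.82, adjusted p = 0.469) in Med23-deficient cells. The first passed the fold and unadjusted p in 1 of 6 fits without a library, and both values depend on the pseudocount because of the 2 libraries near 0. The 4 Rnu3b copies and Gm23927 share most of their bases, so the division of reads among them is uncertain. Reads that hit more than 2 loci were not kept by the authors.

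**Figure D3:**
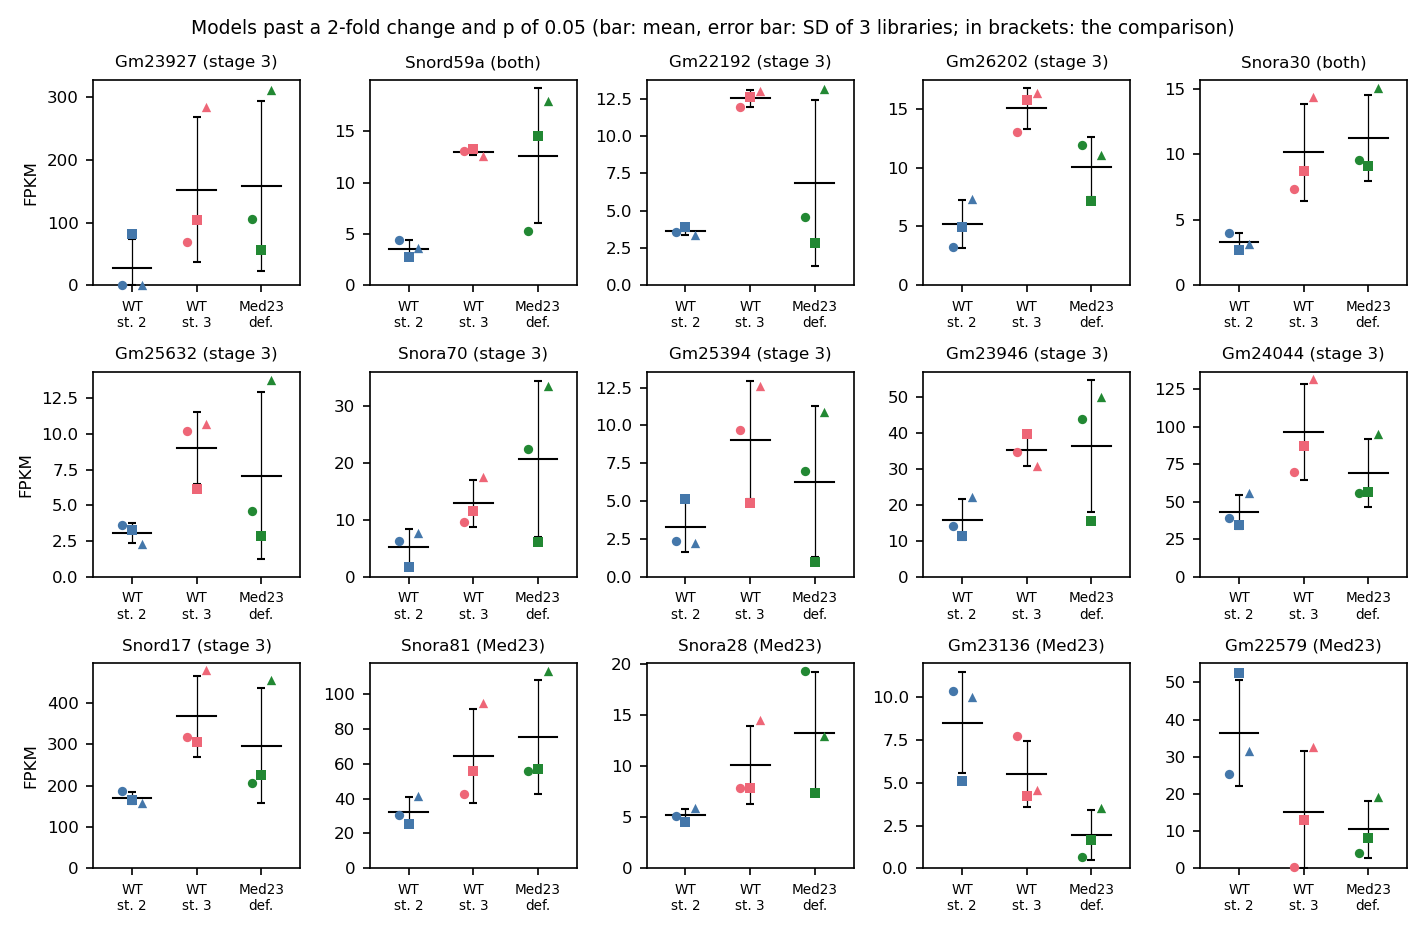
FPKM of the 15 models past a 2-fold change and an unadjusted p of 0.05, with the comparison in brackets; circles, squares and triangles are replicates 1 to 3, bars are means and error bars the SD of 3 libraries. Gm22192 and Snord59a show stage 3 values of 11.9 to 13.2 FPKM against 2.71 to 4.39 in WT stage 2, whereas the Med23-deficient values of both spread from low to high.

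Across all members, 125 of 159 had a log2 fold change above 0 at stage 3, with a median of 0.34 against -0.01 for all genes tested. Without WT stage 3 replicate 3 the count was 91 and the median 0.08, and without replicate 3 of each group 89 and 0.08. The median for the classes was 0.27 for Snord, 0.36 for Snora, 0.59 for U3, 0.29 for scaRNA and 0.34 for models without a class. Without replicate 3 of each group these medians were -0.03, 0.05, 0.30, 0.10 and 0.10. Snord contributed 2 of the 11 calls, Snora 2, models without a class 7, and U3 and scaRNA 0. Stage 3 values lay wholly above stage 2 in 22 members (13.8%, against 7.36% of all genes) and wholly below in 2 (1.26%, against 10.4%). Among genes with the same mean of at least 5 FPKM these shares were 10.2% and 17.8%, and among all 415 snoRNA and scaRNA models tested 8.67% and 0.723%. With replicate 3 of each group left out, 32 members lay wholly above and 21 wholly below (20.1% and 13.2%, against 14.1% and 18% of genes). The 2 lower ones were Snora78, in Snhg9, from 43.0, 25.4 and 25.4 FPKM to 19.4, 24.1 and 21.6, and Gm25894, in Snhg1, from 29.6, 23.2 and 19.9 to 11.0, 13.2 and 19.3. Their log2 fold changes were -0.47 (adjusted p = 0.464) and -0.72 (adjusted p = 0.269). In the same fit the median was 0.12 for 53 small nuclear RNA and 0.14 for 21 ribosomal RNA models, with 0 of either past the fold and p.

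The comparison of Med23-deficient with WT stage 2 cells asked what loss of Med23 did at a matched stage, and it shares the 3 WT stage 2 libraries with the comparison above. Of 159 members, 4 were higher by at least 2-fold with an unadjusted p of at most 0.05 in limma, and 2 were lower (2.52% and 1.26% of members, against 0.735% and 1.28% of all genes and 2.02% in either direction). Among genes with a mean of at least 5 FPKM these shares were 0.721% and 1.51%. Among all 420 snoRNA and scaRNA models tested they were 2.14% and 1.43%. At an unadjusted p alone, 7 members were higher and 4 lower (4.4% and 2.52%, against 4.11% and 6.69% of all genes). Without replicate 3 of each group these were 10 and 13 (6.29% and 8.18%, against 3.63% and 5.88%). After adjustment over 20674 genes 0 members passed (0.3% of all genes did), with limma and in the model after Ballgown alike. Without Med23-deficient replicate 3, 3 were higher and 7 lower by the fold and p, and 2 passed the adjusted p. The split was 10 and 1 without Med23-deficient replicate 2, 2 and 1 without WT stage 2 replicate 2, and 7 and 6 without replicate 3 of each group.

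Snora30 had the lowest adjusted p. It was read at 4.02, 2.68 and 3.15 FPKM in WT stage 2 and 9.60, 9.09 and 15.1 in Med23-deficient cells, with no overlap. The log2 fold change was 1.5 (SE 0.23, adjusted p = 0.104), and it was past the fold and unadjusted p in 19 of 20 alternatives, including each fit without 1 library. The coding gene model Gm42715 was taken as its host by position. Gm42715 was read at 5.81, 7.39 and 16.6 FPKM in WT stage 2 and 0.55, 0.30 and 0.42 in Med23-deficient cells. In WT stage 3 it gave 8.77, 0.93 and 13.8. Gm42715 was lower where the snoRNA was higher, at a log2 value of -2.82 (adjusted p = 0.0801). It was the only host past the fold and unadjusted p in this comparison. Whether Snora30 comes from its transcript or from another gene over the site was not tested. A copy of Snora30 with 98.5% identity, Gm25133, stood at a mean of 0.10 FPKM.

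Snord59a, past both thresholds at stage 3, was read at 5.31, 14.5 and 18.0 FPKM in Med23-deficient cells, which is 1.44 above WT stage 2 on the log2 scale (SE 0.45, adjusted p = 0.339). Its lowest Med23-deficient value was close to the highest WT stage 2 value of 4.39, and the call was lost without Med23-deficient replicate 3 or 2 or WT stage 2 replicate 2 or 3. Snora81, 1 of 4 members in the translation initiation helicase gene Eif4a2, was read at 30.7, 25.5 and 41.5 FPKM in WT stage 2, 42.9, 55.7 and 94.8 in WT stage 3 and 55.6, 57.3 and 113 in Med23-deficient cells. Against WT stage 2 its log2 fold change was 1.13 (SE 0.34, adjusted p = 0.324) in Med23-deficient cells and 0.91 (adjusted p = 0.31) at stage 3. Without Med23-deficient replicate 3 the first was 0.80. Snora28, in the translation initiation gene Eif5, was read at 5.15, 4.58 and 5.88 in WT stage 2 and 19.4, 7.43 and 12.9 in Med23-deficient cells, with a fitted log2 value of 1.11 (SE 0.33, adjusted p = 0.324). Snora28 and Snora81 each kept the call in few of the 6 fits without a library, 2 and 3.

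The 2 lower members were Gm22579 and Gm23136. Gm22579, in the RNA polymerase I cofactor gene Taf1d, was read at 25.4, 52.6 and 31.4 FPKM in WT stage 2, 4.21, 8.25 and 19.1 in Med23-deficient cells and 0.25, 13.0 and 32.5 in WT stage 3. Its log2 fold change in Med23-deficient cells was -1.85 (SE 0.56, adjusted p = 0.325). Gm24539 on chromosome 13 has the identical sequence. The sum of both was 32.2, 62.3 and 42.6 FPKM in WT stage 2 and 17.4, 12.8 and 26.9 in Med23-deficient cells, which do not overlap. Gm23136, in the ribosomal protein gene Rpl4, was read at 10.4, 5.11 and 10.03 in WT stage 2 and 0.65, 1.66 and 3.54 in Med23-deficient cells, with a fitted log2 value of -1.76 (SE 0.45, adjusted p = 0.255). Its call held in each of 6 fits without a library, and that of Gm22579 in 4.

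The shift over all members was smaller here and turned with 1 library. In Med23-deficient cells 104 of 159 members had a log2 fold change above 0, with a median of 0.17 against -0.01 for all genes. Without Med23-deficient replicate 3 the count was 68 and the median -0.09, and without replicate 3 of each group 60 and -0.11. The median was 0.33 without Med23-deficient replicate 1 and 0.29 without replicate 2. Snord models had a median of 0.17, Snora of 0.09, U3 of 0.42, scaRNA of 0.17 and those without a class of 0.14, which became -0.21, -0.10, 0.18, -0.06 and -0.11 without replicate 3 of each group. With all 6 libraries the median was 0.27 for 53 small nuclear RNA and 0.17 for 21 ribosomal RNA models, with 0 of either past the fold and p. The upward shift was thus not particular to the members. Med23-deficient values lay wholly above WT stage 2 in 11 members (6.92%, against 5.63% of all genes) and wholly below in 5 (3.14%, against 8.37%). Among genes with a mean of at least 5 FPKM the shares were 7.01% and 14.8%. With replicate 3 of each group left out, 24 members lay wholly above and 40 wholly below (15.1% and 25.2%, against 12.1% and 18% of genes). Beside Gm22579 and Gm23136 the 5 held Gm24339 in Cep295, Snord100 in Rps12 and Snord82 in the nucleolin gene Ncl. Snord82 was read at 15.4, 15.8 and 10.2 FPKM in WT stage 2 and 8.64, 6.11 and 8 in Med23-deficient cells, with a fitted log2 value of -0.77 (adjusted p = 0.275). By group mean, WT stage 3 was highest in 87 members, Med23-deficient stage 2 in 48 and WT stage 2 in 24, and without replicate 3 of each group these counts were 67, 35 and 57.

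**Figure D4:**
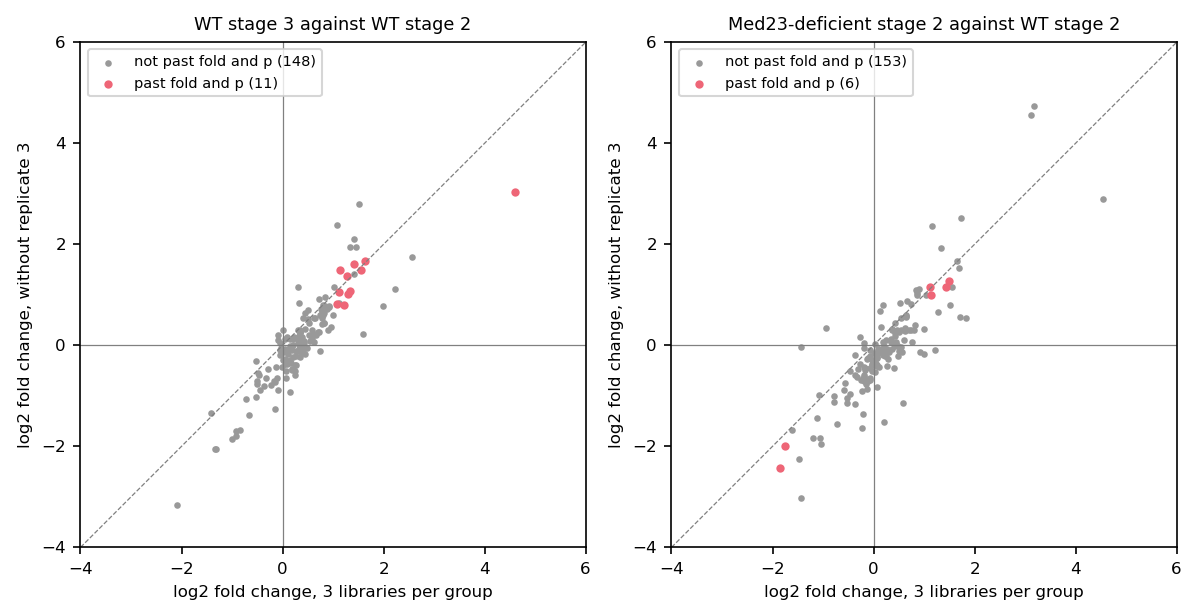
Log2 fold change of each of the 159 members with 3 libraries per group (horizontal axis) and without replicate 3 of both groups (vertical axis), for the stage comparison (left) and the Med23-deficient comparison (right). Models past the fold and unadjusted p are red. The dashed line marks equality. The median member goes from 0.34 to 0.08 on the left and from 0.17 to -0.11 on the right, while each red point keeps its sign.

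The members known to act in processing of the rRNA precursor passed no threshold in either comparison. U3, the snoRNA of the early cleavages that free the small-subunit rRNA, was covered by Rnu3a and 4 Rnu3b models. Rnu3a was read at 202, 170 and 215 FPKM in WT stage 2, 212, 245 and 486 in WT stage 3 and 165, 160 and 416 in Med23-deficient cells, with replicate 3 high in the last 2 groups. The 4 Rnu3b models are identical over 215 bases and averaged 137, 59.9, 15.98 and 11.7 FPKM, and reads cannot be assigned among them by sequence. Their sum was 238, 193 and 126 FPKM in WT stage 2, 210, 293 and 236 in WT stage 3 and 259, 226 and 240 in Med23-deficient cells. In the sum, replicate 3 was not the highest library of any group. A read lying wholly within these copies matches at least 4 loci, and the authors kept reads that hit at most 2. The sum therefore covers only the reads that were kept, is not the full level of U3 and cannot be compared directly with Rnu3a. Rnu3a and Rnu3b4 are 85.6% identical.

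Snord118 (U8), required for processing of the large-subunit rRNA and transcribed from its own gene, was read at 56.0, 69.0 and 71.2 FPKM in WT stage 2, 65.4, 85.9 and 99.9 in WT stage 3 and 45.9, 45.4 and 90.2 in Med23-deficient cells. Snord22 (U22), which acts in small-subunit rRNA processing and lies in Snhg1, was read at 471, 385 and 342, then 488, 542 and 1025, then 598, 461 and 1038. Stage 3 lay wholly above stage 2 for Snord22, with a log2 fold change of 0.71 (adjusted p = 0.414), and 0.27 without replicate 3 of each group. Snora73b and Snora73a (U17), also of small-subunit processing, averaged 29.5 and 24.6 FPKM and are 96.6% identical. Snora74a averaged 62.4 FPKM, from 18.0 to 113 over the libraries. Snord13, which guides acetylation of the small-subunit rRNA, averaged 13.6 FPKM, with 15.7, 5.97 and 11.5 in WT stage 2, 10.4, 37.2 and 18.0 in WT stage 3 and 2.29, 11.6 and 9.91 in Med23-deficient cells. Snord14d and Snord14c (U14), in Hspa8 and 97.7% identical, averaged 11.4 and 6.09 FPKM and were under 0.4 in 4 libraries each. Among the scaRNAs with known structures, Scarna2 had log2 fold changes of 0.15 and 0.16, Scarna6 of 0.80 and 0.85 and Scarna17 of 1.02 and 0.20, at stage 3 and in Med23-deficient cells, and none passed a threshold. Scarna13 lay below the mean of 5 FPKM and is no member, and no model of the Snord115 and Snord116 clusters has a row.

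Of the 159 members 146 lie within a gene on the same strand, 86 in an intron and 60 over an annotated exon, and 13 have no such host. A coding gene around a model was taken as its host before a non-coding one, and then the shortest. Whether a model comes from that transcript was not tested. By this rule the 146 fall in 101 hosts. By the annotated gene type, coding genes hold 121 of them and non-coding genes 25, of which 2 lie in Cct6a, a gene known to encode a chaperonin subunit, and 39 members lie in 24 genes of ribosomal proteins and 10 in 5 genes of translation initiation or elongation factors. A model inside a host counts any fragment that falls on it, so mature snoRNA and unspliced host transcript cannot be told apart.

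Members of 1 host differed widely in level. In Snhg1, itself at 6.46 FPKM, Snord22 averaged 594 FPKM, Gm25894 21.7 and Gm24452 11.4. In Eif4a1 (34.2 FPKM) the means were 709 for Gm25835, 271 for Gm22988 and 9.44 for Gm24029. In Rpl13a (419 FPKM), which holds 4 Snord members, they were 61.1 for Snord34, 26.9 for Snord32a, 26.2 for Snord35a and 7.66 for Snord33. Eif4a2 (27.3 FPKM) held 4 from 16.9 to 57.5, Snhg12 (8.58) 4 from 7.82 to 31.0, Rpsa (508) 3 from 30.8 to 69.6, Rps12 (479) 3 from 10.6 to 27.4, 2410006H16Rik (62.7) 3 from 5.19 to 19.6, Rpl17 (405) 3 from 5.93 to 12.6 and Rpl4 (554) 3 from 5.33 to 11.0. Tex14, within which the 4 Rnu3b copies lie by position, averaged 0.20 FPKM. Whether these copies come from its transcript was not tested. The most abundant snoRNAs were thus not in the most highly expressed of these hosts.

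Members of a host also differed in their change. In Rps12 the log2 fold changes at stage 3 were between 0.00 and 0.05 for all 3 members, and in Rpl13a between 0.23 and 0.41 for all 4. In Rpsa they were 1.12 for Gm24044 but 0.07 for Snora62 and -0.05 for Gm26448, and in Rpl17 1.42 for Gm26202 but -0.09 for Snord58b and -0.52 for Gm23301. Prrc2b held 2 members, of 1.29 and 1.55. Over 100 hosts with a row, the host's median log2 fold change was -0.15 at stage 3 and -0.19 in Med23-deficient cells, whereas the medians of their 145 members were 0.33 and 0.16. Without replicate 3 of each group the hosts were at -0.14 and -0.23 and the members at 0.05 and -0.12. Across hosts the rank correlation between a host's change and the mean change of its members was 0.05 in each comparison (Spearman), a description over genes that share the same libraries. One host, Rcc1, passed the fold and unadjusted p at stage 3, with a log2 fold change of -1.09. Snora73b and Snora73a, placed in Rcc1 by the rule that takes a coding gene first, were at 0.21 and -0.16.

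**Figure D5:**
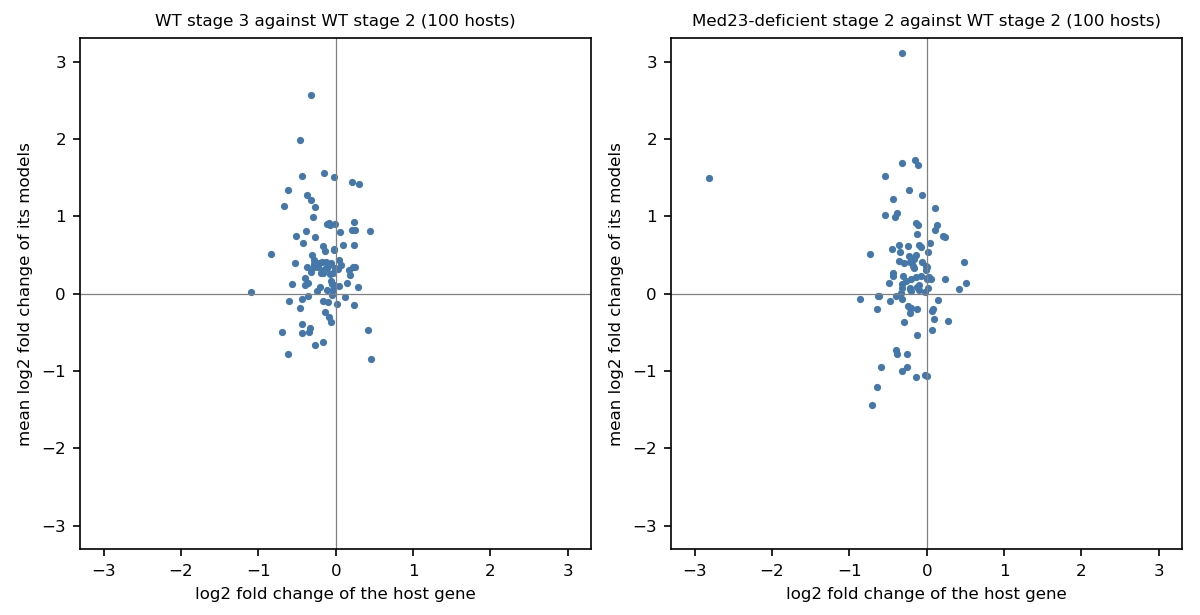
Log2 fold change of 100 host genes (horizontal axis) against the mean log2 fold change of the members inside each (vertical axis), at stage 3 (left) and in Med23-deficient cells (right), 1 point per host. Hosts have medians of -0.15 and -0.19. Their members spread from -0.84 to 2.57 on the left and from -1.44 to 3.11 on the right. The far left point of the right panel is Gm42715, taken as host of Snora30 by position.

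Some sites are annotated with more than 1 model. For 10 members another snoRNA model of the same site differs by 1 or 2 bases in length, and StringTie gave nearly all signal to a single model in most libraries. Exceptions changed single values. Snora16a was at 2.58 FPKM in WT stage 3 replicate 2 where the other model was at 23.6. Gm23927 was at 55.8 in Med23-deficient replicate 2 with 23.9 on the other, and Rnu3b1 was listed at 0 in WT stage 2 replicate 3 with 7.61 on the other. With the models of a site summed, 12 and 7 members passed the fold and p, against 11 and 6.

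The proteins that bind and process these RNAs were read from lists. The core C/D proteins fibrillarin (Fbl), Nop56, Nop58 and Snu13 averaged 10.5, 16.7, 8.03 and 14.2 FPKM, and the core H/ACA proteins dyskerin (Dkc1), Gar1, Nhp2 and Nop10 averaged 14.5, 5.53, 17.7 and 11.0. Of 12 C/D assembly and core genes with a row (of 13 listed), 0 passed the fold and p or the adjusted p in either comparison in limma, and at an unadjusted p 3 were lower at stage 3 and 3 in Med23-deficient cells, each time Nop58, Nufip1 and Ruvbl1, against 8.59% and 6.69% of all genes. The comparisons share the 3 WT stage 2 libraries, so the repeat is not independent. Their median log2 fold changes were -0.15 and -0.19, against -0.01 for all genes. Of 12 H/ACA and Cajal body genes, 0 passed, and 4 and 3 were lower at an unadjusted p, with medians of -0.30 and -0.27. Dkc1 stood at -0.44 (adjusted p = 0.174) at stage 3 and -0.32 (adjusted p = 0.358) in Med23-deficient cells. In 19 genes of trimming and decay, such as the exosome and the debranching enzyme Dbr1, 0 passed, with medians of -0.05 and -0.12 and 2 lower at an unadjusted p in each comparison. In 18 non-coding host genes with a row (of 20 listed), among them Gas5 and Snhg1, 0 passed, with medians of 0.02 and -0.06 and 1 and 2 lower at an unadjusted p. The counts lower at an unadjusted p are small in each list and stand beside the same 8.59% and 6.69% of all genes. Repeats between the comparisons are not independent in any of the lists.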

How the data were processed

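The authors prepared stranded total RNA libraries for small inputs, which also hold RNA without a poly(A) tail, trimmed reads with Trimmomatic 0.36, mapped them to the mm10 genome (HISAT2), kept reads that hit at most 2 loci and estimated levels of GENCODE vM12 gene models (StringTie). The deposited values are FPKM in 1 table of 21883 genes, with no read counts, so sequencing depth is unknown and counting error cannot be given. StringTie shares reads among overlapping and near-identical models, which limits single snoRNA values. Reads of a stretch found at more than 2 loci were left out, which further limits models with several copies. Groups follow the labels.

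From these values log2(FPKM + 1) was fitted per gene by limma (version 3.58.1, R 4.3.3, moderated by eBayes), 6 libraries per comparison, over genes above 0 in at least 1 of them. The main fit used no mean-variance trend, and a fit with one was an alternative. Calls were made at 2-fold or more with unadjusted p up to 0.05, as in the study, and separately at 0.05 after Benjamini-Hochberg adjustment. A fold change on this scale understates changes of low models. In a simulation of the stage comparison, 200 of 20689 genes, drawn from those above about 5 FPKM, were moved by a log2 value of 2. Of these, 98.5% passed fold and p and 79.5% the adjusted p, as did 141 and 7 unmoved genes. With no change, 160 and 0 genes passed. Noise was drawn independently for each gene and library, with no shift shared within a library as in replicate 3. These rates therefore need not hold for the members.

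Sequences, hosts and exons came from GENCODE vM21. Models of the same site overlap by at least 90%. Python 3.11.15, pandas 2.3.3, Biopython 1.88 and matplotlib 3.10.9 were used. Members and lists were chosen with earlier results of these data known. Named models were the 8 most abundant Snord and Snora and 5 scaRNA, those past a threshold, clusters of at least 3 in a host, those of known rRNA processing roles and those at the limit; models near 0 in some libraries and high in others, and those of non-overlapping groups, were named after their values were seen. Alternatives were pseudocounts of 0.1 and 5, a mean FPKM of at least 1, TPM scales with and without Gm23935, a model that took 62.2% to 71.9% of the summed FPKM of each library, the upper quartile, a trend, robust eBayes, all 9 libraries, a replicate block, an ordinary linear model after Ballgown and each library left out. Scaling to the members' median, leaving out replicate 3 of each group and summing models of a site were added after seeing the data.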

Additional observations from a re-analysis of the deposited data

How the results depend on the processing

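Gm22192 and Snord59a at stage 3 passed the fold and p in all 20 alternatives, and no called model changed sign under any of them. Members past the fold and p at stage 3 (11) numbered 4 with a pseudocount of 5, 5 in the model after Ballgown and 6 when scaled to the members' median, and 9 to 20 with 1 library left out. Members past the adjusted p (2) numbered 5 among genes of a mean FPKM of at least 1, 0 after Ballgown, 0 without replicate 3 of each group and 1 to 5 with 1 library left out. Their median log2 fold change (0.34) was 0.206 after Ballgown, with 96 of 159 above 0, 0.0356 when scaled to the members' median and 0.0836 to 0.533 with 1 library left out. In Med23-deficient cells the members past the fold and p (6) numbered 2 with a pseudocount of 5, 12 at a mean FPKM of at least 1, 10 with a trend, 10 with all 9 libraries and 13 without replicate 3 of each group, and 3 to 11 with 1 library left out, when 0 to 2 passed the adjusted p. Their median (0.17) was 0.061 on the TPM scale, with 87 of 159 above 0, 0.485 after Ballgown, -0.0794 when scaled to the members' median and -0.115 without replicate 3 of each group, and -0.0872 to 0.335 with 1 library left out. Over all genes, 1529 and 1074 passed the fold and p with a pseudocount of 0.1 and 201 and 103 with one of 5, against 726 and 417. The cause of these shifts was not tested.

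A fit with a replicate block called 12 and 9 members past the fold and p and 0 past the adjusted p, and 727 and 429 genes passed overall. Same-numbered libraries correlated in their deviations by 0.03 to 0.16 and 0.00 to 0.14. Differently numbered ones correlated by -0.12 to 0.03 and -0.09 to 0.05. In the stage comparison each same-numbered value was above all the others, for replicate 2 barely so. In the Med23-deficient comparison only that of replicate 3 was. These values do not settle whether the numbers mark pairs, and the main fit took the libraries as unpaired. Unknown depth limits what low models can show.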
